A study of Mus musculus with 2 samples.

Results

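The retinoid genes are 42 genes for the carriers, enzymes and receptors of vitamin A, chosen by name, and all 42 were found among the 21607 protein-coding entries analyzed from the deposited expression table. They were measured in 2 samples from the lingual epithelium of newborn (P0) *Sox2GFP* mice of mixed background, a reporter line in which GFP follows *Sox2*. Pups were pooled, the peeled epithelium was dissociated, and about 100000 cells each of a GFP-high and a GFP-low population were sorted from discrete bins of a continuum of fluorescence. Both populations therefore share the genotype, the age and the pool of pups, and they differ in GFP brightness. RNA of each was sequenced as 1 stranded, single-end library, so no value below has a replicate check and no test across genes was run. At the sorted locus itself, *Sox2* had an FPKM of 112 in GFP-high against 59.0 in GFP-low cells (1.90-fold).

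Vitamin A circulates as retinol and is stored in cells as retinyl esters. Retinol is oxidized reversibly to retinal, and retinal is oxidized irreversibly to retinoic acid, the hormone-like form. Retinoic acid binds retinoic acid receptors (RAR) that sit on DNA as pairs with retinoid X receptors (RXR), and CYP26 enzymes break it down. In stratified epithelia such as skin and oral mucosa, retinoic acid is known for restraining cornification.

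Expression is in FPKM, which corrects the fragments of a gene for its transcript length and for the size of the library, so levels can be set side by side between genes. Where values come in pairs, the GFP-high value stands first. A gene was called higher in one population when it had at least 5 FPKM there and at least 1.5 times the FPKM of the opposing population, which is a rule of size and not a test. A fold below is the larger FPKM divided by the smaller, and in bulk samples fewer cells that express a gene and less RNA per cell cannot be told apart.

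Of the 42 retinoid genes, 12 (28.6%) were called higher in GFP-high cells, against 4.72% of all 21590 entries with a number in both libraries. They were *Crabp2*, *Rarb*, *Aldh1a1*, *Rbp2*, *Adh1*, *Plb1*, *Dgat2*, *Retsat*, *Adh7*, *Sdr16c5*, *Aldh1a7* and *Rdh12*. Another 4 (9.52%), *Rxrg*, *Crabp1*, *Cyp26a1* and *Rdh5*, were called higher in GFP-low cells, against 4.44% of all entries. Many entries of the table are silent, whereas 28 retinoid genes had 5 FPKM or more in at least 1 library. Among the 10760 entries that did so, 9.48% were called higher in GFP-high and 8.9% higher in GFP-low cells. Of the 28 genes, 5 (*Aldh1a1*, *Rarb*, *Crabp1*, *Cyp26a1* and *Rxrg*) reached the minimum in 1 library only and were all called, which the minimum itself favors. The median difference in log2(FPKM + 1), GFP-high minus GFP-low, was 0.16 over the 41 retinoid genes above 0 and -0.02 over the 17283 entries above 0. The list was drawn up with earlier results of these libraries known, so its counts describe it and are no independent evidence.

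**Figure D1:**
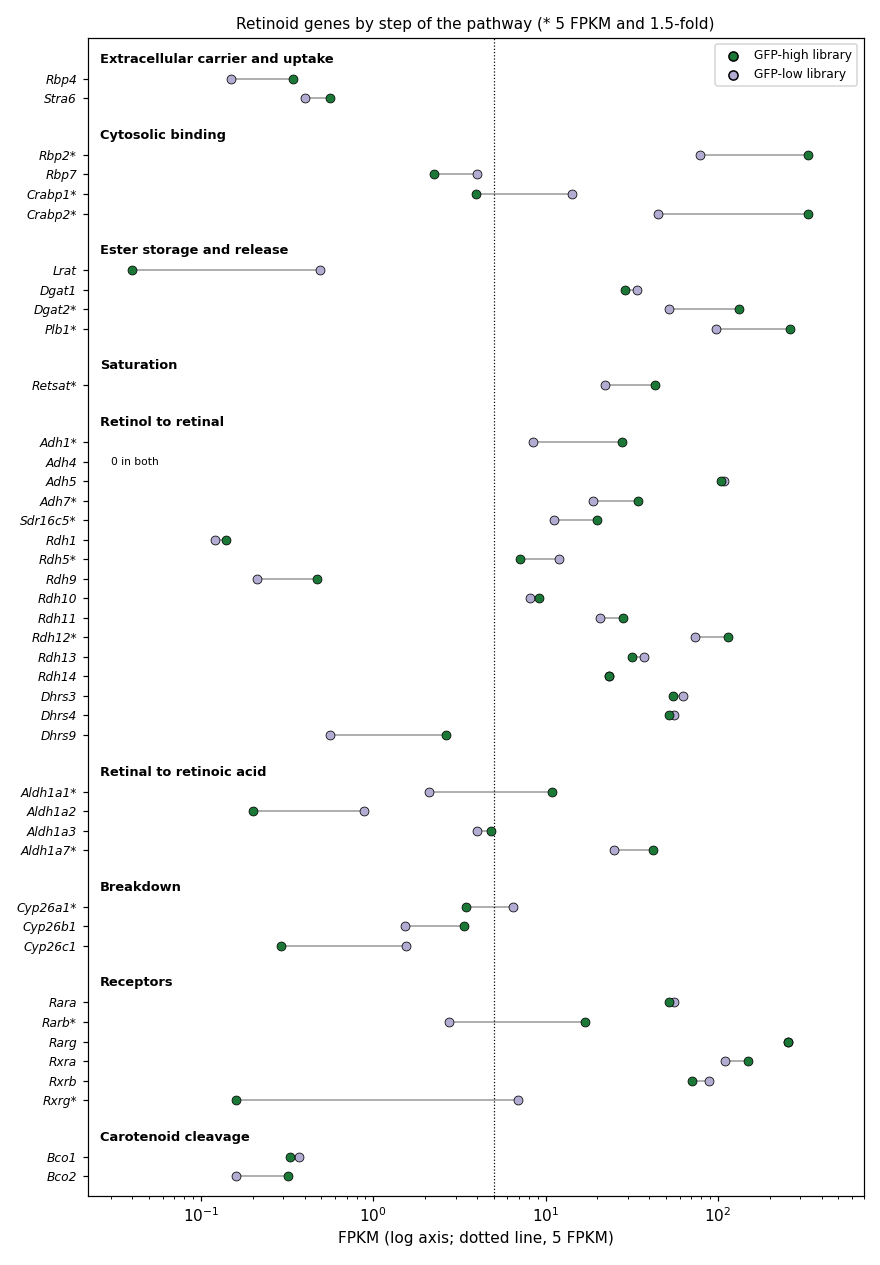
FPKM of the 42 retinoid genes in the GFP-high (green) and GFP-low (lilac) library on a log axis, grouped by step of the pathway; asterisks mark the 16 genes past 5 FPKM and 1.5-fold, and the dotted line is 5 FPKM. *Crabp2* and *Rbp2* lie furthest to the right in GFP-high cells, at 331 FPKM each, while the points of *Rarg* and *Rdh14* coincide.

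The scale of the libraries bears on the split. When both libraries were rescaled to the same total (TPM), every ratio of GFP-high to GFP-low moved by -0.10 on the log2 scale, and calls in favor of GFP-high cells made up 40.3% of all calls instead of 51.6%. *Rdh12* was the retinoid gene that then lost its call, leaving 11 in GFP-high cells, and the 4 in GFP-low cells remained. Scaling by the median ratio of the libraries moved the share of calls in favor of GFP-high cells the other way, to 56.4%. It changed no retinoid call.

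Direct repeats of the receptor half-site are shown first, because they are how RAR and RXR pairs are known to recognize their targets. Promoters of 250 bases before and 50 after the start site (RefSeq, GRCm38.p6) were found for 35 of the 42 genes, 53 promoters in all. There was no entry for *Aldh1a3*, *Crabp2*, *Dgat1*, *Dgat2*, *Rdh10*, *Rdh13* or *Sdr16c5*. The search took as half-site AGGTCA or AGTTCA or GGGTCA or GGTTCA, repeated in the same direction with a spacer of 1, 2 or 5 bases, on either strand. The repeat with a spacer of 5 was found at 2 retinoid genes, *Rarb* and *Cyp26a1*, which is 3.77% of their 53 promoters against 0.0974% of all 32851 promoters. The repeat with a spacer of 1 was found at *Bco1*, 1.89% of the 53 promoters against 0.222% of all promoters, and that with a spacer of 2 at none of the 53 promoters (0.268% of all promoters). The stretches around the repeats in *Rarb* (chr14:16575493-16575549, minus strand, repeat beginning 53 bases before the start site) and *Cyp26a1* (chr19:37697756-37697807, plus strand, repeat beginning 32 bases before the start site and reading on the opposite strand) are given from 5′ to 3′ along the gene, with the half-sites in capitals:
*Rarb*: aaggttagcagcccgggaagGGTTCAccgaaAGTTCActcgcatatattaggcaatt
*Cyp26a1*: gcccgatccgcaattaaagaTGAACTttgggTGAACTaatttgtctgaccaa
A match of letters is a description and does not show that a receptor was bound there in these cells. The genes were chosen by name for their part in this pathway. Their share of promoters with a repeat is therefore no test of enrichment.

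These genes with a matching repeat lay on opposite sides of the comparison. *Rarb* had an FPKM of 17.0 in the GFP-high and 2.76 in the GFP-low population, a fold of 6.15, and *Cyp26a1* had 3.47 in GFP-high against 6.49 in GFP-low cells (1.87-fold, the other way). Both were above 0 FPKM in both libraries. The lower value of *Rarb* was worth about 491 reads and that of *Cyp26a1* about 168 at the estimated depth. Some reads given to *Rarb* may come from *Top2b*, which overlaps it as described below. The start site used for *Rarb* lies inside the annotated gene (chr14:16430839-16819156), and FPKM covers the gene as a whole. The *Rarb* values therefore do not separate transcripts from that start site.

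RNA of the 2 genes for the blood carrier of retinol and its uptake was barely detected. *Rbp4*, the plasma carrier of retinol, had an FPKM of 0.34 in the GFP-high and 0.15 in the GFP-low population. *Stra6*, the membrane receptor for that carrier, had 0.56 and 0.40. Neither reached 5 FPKM in either library. These RNA levels do not measure how much retinol reached the cells.

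The cytosolic binding proteins, which hold retinol or retinoic acid inside the cell, include the 2 retinoid genes of highest level in GFP-high cells. *Crabp2* (chr3:87948666-87953376), which carries retinoic acid to the RARs, had an FPKM of 331 in GFP-high against 45.0 in GFP-low cells (7.37-fold). It ranked 409 of the 21607 analyzed entries by FPKM in GFP-high cells against 4239 in GFP-low cells. *Rbp2* (chr9:98486115-98509781), a cellular retinol-binding protein best known from the small intestine, had an FPKM of 331 in the GFP-high and 78.5 in the GFP-low population, a fold of 4.22. Its relative *Rbp7* was low in both, at 2.25 and 4.01 FPKM. *Crabp1* (chr9:54764748-54773110), the second retinoic acid-binding protein and one linked to its breakdown, went the other way, with 3.95 FPKM in GFP-high against 14.3 in GFP-low cells (3.62-fold). Within a library, *Crabp2* was 83.9 times the FPKM of *Crabp1* in GFP-high cells against 3.15 times in GFP-low cells. *Crabp1* thus made up 1.18% of the summed FPKM of the pair in the GFP-high and 24.1% in the GFP-low population.

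Genes of ester storage split into a silent and a well-expressed set. *Lrat*, the main enzyme that turns retinol into its ester, had an FPKM of 0.04 in GFP-high against 0.49 in GFP-low cells, which correspond to about 6 and 89 reads. *Dgat1*, a triglyceride enzyme that also esterifies retinol, differed little, with 28.7 and 33.8 FPKM. *Dgat2*, which makes triglycerides, had 133 FPKM in the GFP-high and 52.1 in the GFP-low population, a fold of 2.56. *Plb1* (chr5:32232708-32366520), a phospholipase that can also cleave retinyl esters, had 261 FPKM in GFP-high against 97.4 in GFP-low cells (2.67-fold). In both libraries the well-expressed genes of this step are therefore ones that also act on other lipids. *Retsat*, which saturates retinol to dihydroretinol, had 43.3 FPKM in the GFP-high and 22.0 in the GFP-low population, a fold of 1.96, and 14.1% of its 50-nt transcript windows also occur in another annotated gene.

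The step between retinol and retinal had the most genes, 16. Of the 12 that reached 5 FPKM in at least 1 library, 4 (33.3%) were called higher in GFP-high cells, 1 (8.33%) higher in GFP-low cells and 7 neither. The shares over all entries that reached it were 9.48% and 8.9%. Among the cytosolic alcohol dehydrogenases, *Adh1* had 27.9 FPKM in GFP-high against 8.47 in GFP-low cells (3.30-fold). *Adh7*, the class IV enzyme typical of upper digestive epithelia, had 34.2 and 18.7 FPKM, a fold of 1.82. *Adh5*, the class III enzyme known mainly for formaldehyde, was the most abundant of them, at 104 and 108 FPKM, and did not pass 1.5-fold. *Adh4* is listed at 0 in both libraries. These 4 genes lie in a row on chromosome 3 in the same direction, with *Adh7* and *Adh1* 27.6 kb apart and *Adh4* 12.2 kb before *Adh5*.

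Of the membrane-bound enzymes that oxidize retinol, *Sdr16c5* had 19.95 FPKM in the GFP-high and 11.2 in the GFP-low population, a fold of 1.77. *Rdh10*, the enzyme known to be needed for embryonic retinoic acid, had 9.17 and 8.17 FPKM, a fold of 1.12. Enzymes known chiefly for returning retinal to retinol were well expressed in both populations. *Dhrs3* had 55.2 FPKM in GFP-high against 62.9 in GFP-low cells, *Dhrs4* 51.7 and 56.0, *Rdh13* 31.8 and 37.0, and *Rdh14* 23.3 and 23.5. *Rdh11* and *Rdh12*, which point away from each other 16.6 kb apart on chromosome 12, were both higher in GFP-high cells, *Rdh12* with 115 against 73.4 FPKM (fold 1.56, the called retinoid gene closest to the limit) and *Rdh11* with 28.0 against 20.6 FPKM (fold 1.36, under it). *Rdh5*, best known from the eye, had 7.13 FPKM in the GFP-high and 12.0 in the GFP-low population, a fold of 1.68. This value is uncertain, since 20.4% of its windows also occur in its neighbor *Bloc1s1* on the same strand, which had 76.7 and 72.9 FPKM. *Rdh1* (0.14 and 0.12 FPKM), *Rdh9* (0.47 and 0.21) and *Dhrs9* (2.66 and 0.56) stayed under 5 FPKM, and 68.3% of the windows of *Rdh9* are shared with other genes.

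The dehydrogenases that make retinoic acid from retinal were expressed at modest levels. *Aldh1a1* (chr19:20492715-20643465) had 10.8 FPKM in GFP-high against 2.11 in GFP-low cells (5.14-fold). *Aldh1a3* had 4.85 and 3.98 FPKM, just under the minimum. *Aldh1a2*, the main source of retinoic acid in embryonic mesoderm, had 0.20 FPKM in the GFP-high and 0.88 in the GFP-low population, about 11 and 64 reads. The 3 genes together summed to 15.9 FPKM in GFP-high against 6.97 in GFP-low cells, and the leading gene was *Aldh1a1* in the former (68.2%) and *Aldh1a3* in the latter (57.1%). *Aldh1a7*, a close relative of *Aldh1a1* that has little known activity on retinal, was the most abundant, with 41.8 and 25.0 FPKM, a fold of 1.67. *Aldh1a1* and *Aldh1a7* lie 49.5 kb apart, and 3.06% of the windows of the former and 7.49% of those of the latter are shared.

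**Figure D2:**
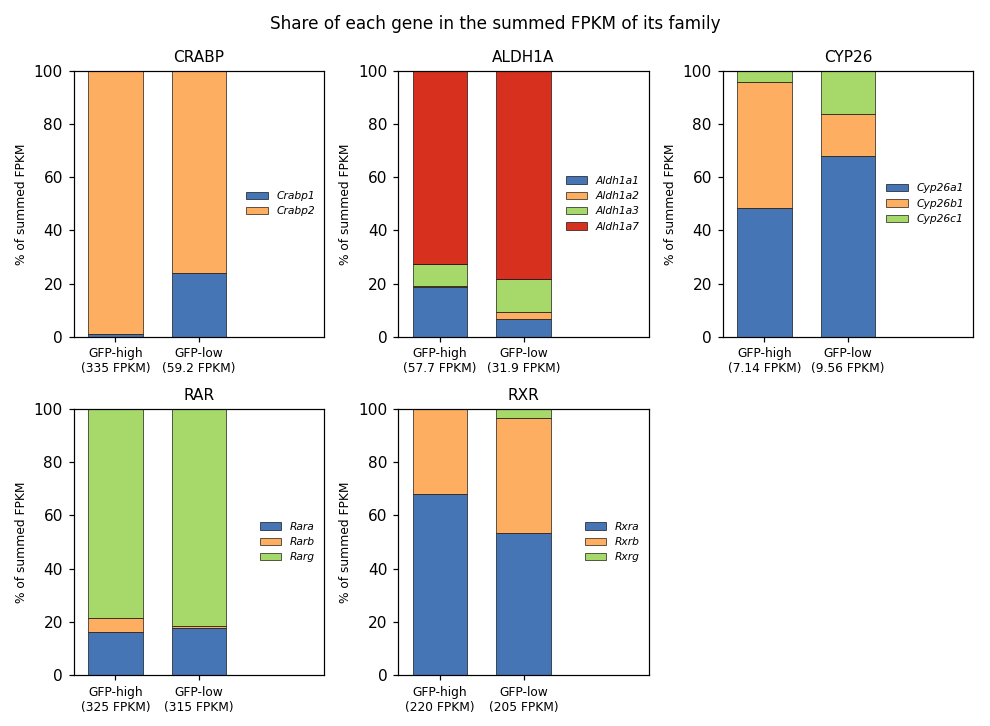
Share of each gene in the summed FPKM of its family, in percent, for the GFP-high and the GFP-low library; the sums in FPKM stand under the bars. *Crabp1* is 24.1% of its pair in GFP-low and 1.18% in GFP-high cells, while *Rarg* makes up most of the RARs in both.

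Breakdown of retinoic acid was at low FPKM in both populations. The 3 CYP26 genes summed to 7.14 FPKM in the GFP-high and 9.56 in the GFP-low population. *Cyp26a1* was the leading gene in GFP-low cells, with 67.9% of the sum. In GFP-high cells it shared the lead with *Cyp26b1*, which held 47.3% there and 16.0% in GFP-low cells. *Cyp26b1* had 3.38 FPKM in GFP-high against 1.53 in GFP-low cells, and *Cyp26c1* 0.29 and 1.54. *Cyp26c1* and *Cyp26a1* are neighbors 4.4 kb apart on chromosome 19, and both had the higher FPKM in GFP-low cells. *Cyp26c1* was under 5 FPKM in both libraries, at about 12 and 84 reads, and was not called.

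All 6 receptor genes reached 5 FPKM in at least 1 library, and the sums of each class were close. The RAR genes summed to 325 FPKM in the GFP-high and 315 in the GFP-low population and the RXR genes to 220 and 205. *Rarg* (chr15:102234938-102257517), the RAR typical of epidermis, had 256 FPKM in both and made up 78.7% of the RAR sum in GFP-high against 81.5% in GFP-low cells. *Rara* had 52.1 and 55.5 FPKM. *Rarb* (chr14:16430839-16819156), which is known to be induced by retinoic acid itself, made up 5.23% of the sum in the GFP-high and 0.877% in the GFP-low population. The 3′ end of *Rarb* overlaps that of *Top2b* on the opposite strand by 4624 bases, 34.1% of its windows are shared with other genes, and whether counting used the strand is not given in the sources used here, so the *Rarb* values are uncertain. *Top2b* had 214 FPKM in GFP-high against 203 in GFP-low cells.

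Among the RXR genes, *Rxra* had 149 FPKM in the GFP-high and 109 in the GFP-low population, a fold of 1.36. *Rxrb* had 70.3 and 89.0 FPKM, a fold of 1.27 in the other direction. Neither passed 1.5-fold, and the ratio of *Rxra* to *Rxrb* was 2.12 in GFP-high against 1.23 in GFP-low cells. *Rxrg* (chr1:167598384-167639623) had 0.16 FPKM in the GFP-high and 6.94 in the GFP-low population, a 43.4-fold difference. At the estimated depth these are about 9 and 511 reads, so the size of the fold rests on few reads in GFP-high cells. It was 27.1 with 0.1 added to each FPKM and 6.84 with 1 added, and *Crabp2*, at 7.23 with 1 added, was then the larger.

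The carotenoid-cleaving enzymes *Bco1* (0.33 and 0.37 FPKM) and *Bco2* (0.32 and 0.16 FPKM), which start vitamin A formation from plant pigments, were barely detected in both libraries. In all, 14 retinoid genes were under 5 FPKM in both libraries, the highest of them at 4.85, and 9 of these differed by 1.5-fold or more, 5 in favor of GFP-high and 4 in favor of GFP-low cells. Because of the minimum they are not among the calls. Differences of this size at low FPKM were not particular to the retinoid genes. With no minimum, 3131 and 3248 of all entries passed 1.5-fold in favor of GFP-high and GFP-low cells, against 1020 and 958 with it.

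**Figure D3:**
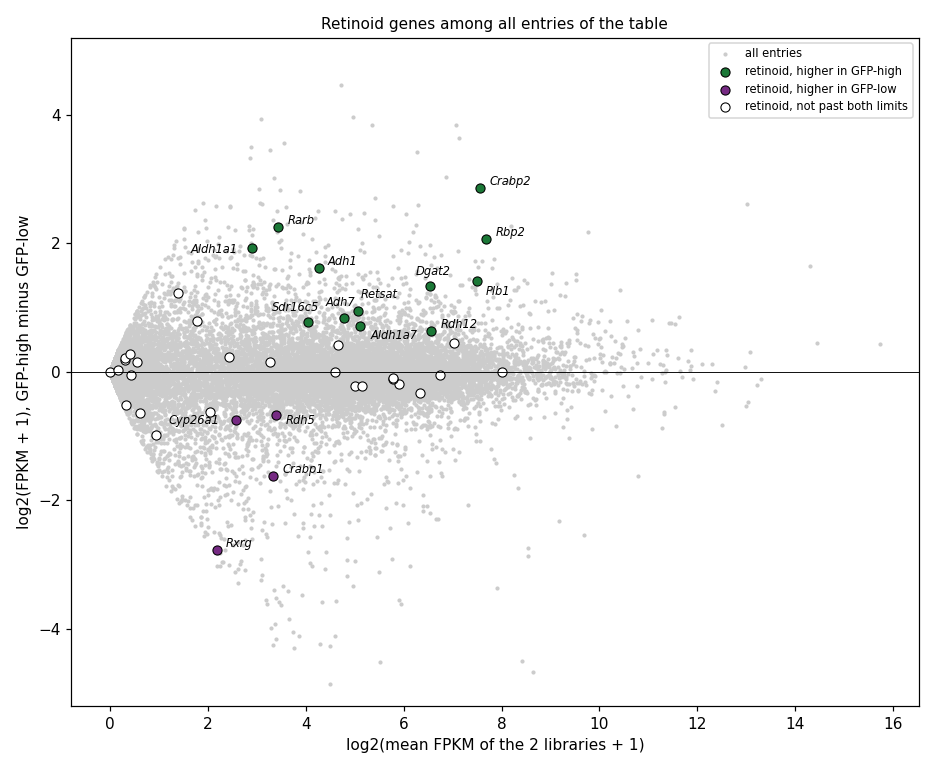
Difference in log2(FPKM + 1), GFP-high minus GFP-low, against the log2 of the mean FPKM of both libraries plus 1, for all entries (grey) and the retinoid genes. *Crabp2* stands apart from most entries of like level at 2.85 on this scale, and *Rxrg* is the lowest retinoid gene at -2.78.

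Other genes of the pathway were taken from a list of 47, none of them among the 42. Of these, 4 (8.51%) were called higher in GFP-high cells and 4 (8.51%) higher in GFP-low cells, against 4.72% and 4.44% of all entries. There were 25 that reached 5 FPKM in at least 1 library. Of those 25, 16% were called in each direction, against 9.48% and 8.9% of all entries that did so. The median difference in log2(FPKM + 1) over the genes above 0 was -0.01, beside -0.02 over all entries. Of the carriers, *Fabp5*, a fatty acid-binding protein that can also carry retinoic acid, had 434 and 178 FPKM, a fold of 2.44.

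The 7 receptor coregulators on the list, *Ncoa1* and *Crebbp* among them, were above 5 FPKM in both libraries and none was called, although 6 of the 7 had the lower FPKM in GFP-high cells. Genes known to respond to retinoic acid did not share a direction. *Meis2* (250 and 107 FPKM, fold 2.33) and *Meis1* (116 and 72.2 FPKM, fold 1.61), homeobox factors, were called higher in GFP-high cells. *Rarres2* (1.65 and 14.8 FPKM, fold 8.98), which encodes the chemoattractant chemerin, and *Rarres1* (2.95 and 5.99 FPKM, fold 2.03) were called higher in GFP-low cells. The other 6 of this group of 10 were under 5 FPKM in both libraries. Among other partners of RXR, *Ppara* had 6.72 FPKM in GFP-high against 2.17 in GFP-low cells (3.10-fold), and the vitamin D receptor *Vdr* had 24.0 and 51.3 FPKM, a fold of 2.14 in the other direction. The remaining call was *Lipa*, a lysosomal lipase, with 5.73 and 9.45 FPKM.

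Markers of cell types also differed between the populations, and not every list went in a single direction. All 7 basal keratinocyte markers were above 200 FPKM in both libraries, with sums of 25796 FPKM in the GFP-high and 32952 in the GFP-low population, so the labelled epithelium was found in both. The 8 suprabasal keratinocyte markers summed to 73028 FPKM in GFP-high against 32483 in GFP-low cells, a ratio of 2.25. Most of that difference came from *Krt13* (30523 and 9738 FPKM) and *Krt4* (14203 and 2323 FPKM). In all, 4 of the 8 were called higher in GFP-high cells. *Krt10*, *Lor* and *Krtdap* were not called, and *Ivl*, under 5 FPKM in both libraries, went the other way (0.67 and 2.19 FPKM). The 8 taste cell markers summed to 231 and 159 FPKM, with 4 called higher in GFP-high cells, *Shh* among them at 20.7 and 0.84 FPKM, and 2 higher in GFP-low cells. The part of suprabasal or taste cells in the retinoid genes higher in GFP-high cells was not tested.

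On the GFP-low side, 4 of 6 Schwann lineage markers were called higher, with sums of 67.3 FPKM in the GFP-high and 255 in the GFP-low population. *Sox10* among them had 0.51 and 42.7 FPKM, and *Erbb3* differed little, with 60.3 and 66.9 FPKM. The 11 fibroblast markers summed to 529 and 2482 FPKM, and 6 of them were called higher in GFP-low cells, while *Col3a1* still had 193 FPKM in GFP-high cells. The 5 melanocyte markers summed to 18.5 and 3.03 FPKM, of which *Mitf* had 17.2 and 1.24, with *Tyr* at 0 in both libraries and *Mlana* at 0 in GFP-high cells. No other marker of any list was at 0. Endothelial markers summed to 37.2 and 26.3 FPKM, leukocyte markers to 18.3 and 19.8, and skeletal muscle markers to 10.3 and 11.1. The part of Schwann lineage cells and fibroblasts in the retinoid genes higher in GFP-low cells, *Rxrg* and *Crabp1* first among them, was not tested.

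**Figure D4:**
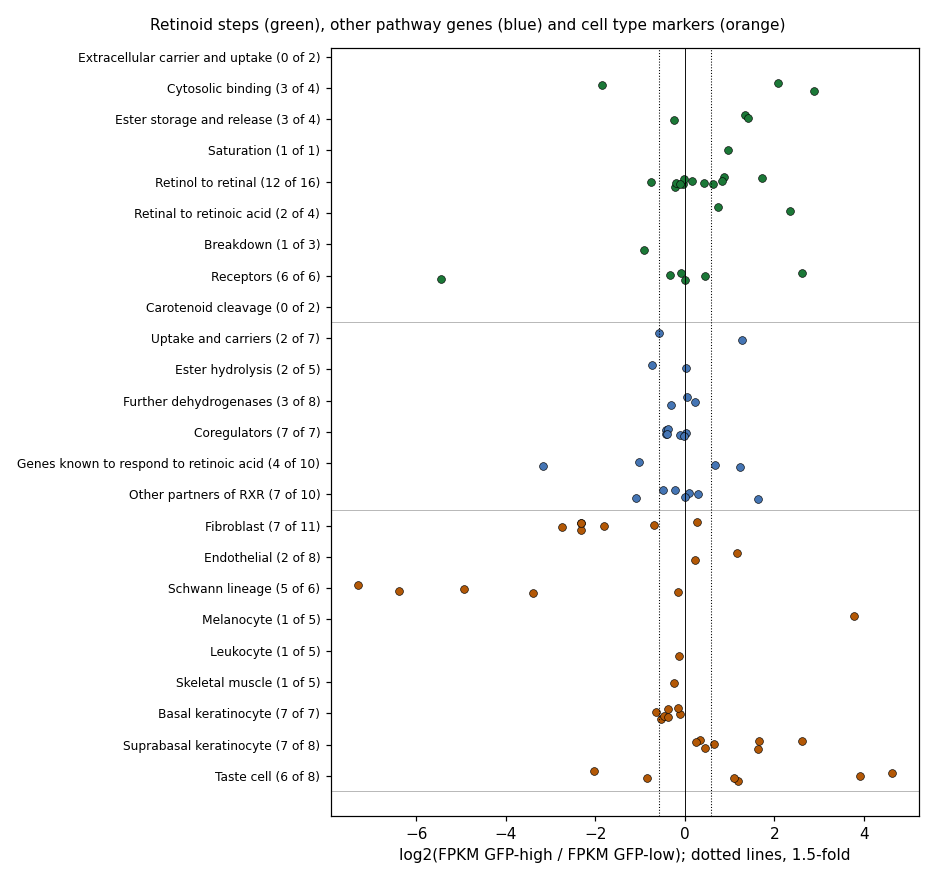
Log2 ratio of FPKM, GFP-high over GFP-low, for genes with 5 FPKM or more in at least 1 library, by retinoid step (green), group of other pathway genes (blue) and marker list (orange); each point is 1 gene, the counts give genes shown of genes listed, and dotted lines mark 1.5-fold. *Rxrg* is the leftmost green point, at the side of the scale where most Schwann lineage and fibroblast markers lie.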

How the data were processed

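The authors deposited FPKM from Cufflinks 2.2.1, rounded to 2 decimals, after Trimmomatic 0.36 and mapping of the 50-nt reads to mm10 with GSNAP. The annotation given to Cufflinks is not given in the sources used here. The FPKM columns are named means, but the labels hold 1 library per population, so each was read as 1 library. A deposited column of the authors' own fold changes was not used. Of 21628 entries, 21 typed as other than protein-coding in GENCODE M21 were left out, and 17 entries of the table had no number in at least 1 library.

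Calls needed an FPKM of 5 where the gene was higher and a fold of 1.5, the rule of the study's results. The study's methods instead ask for at least 5 FPKM in every sample. That rule is the alternative below with 5 FPKM required in both populations. The labels give about 75M reads per sample. Low FPKM of single-transcript genes, multiplied by exon length less 200 nt, came nearest to whole reads at about 27M (GFP-high) and 35M (GFP-low) reads, where 64.7% of 201 and 63.8% of 152 values lay within 0.15 of a whole read. Read numbers in the text are approximate for this reason, and a count model was not used. Shared windows are 50-nt stretches of a gene's GENCODE transcripts found in another gene's, on either strand; 20% or more was taken as uncertain. Gene positions are those of GENCODE M21 on mm10. All retinoid genes are named, as are the other pathway genes past both limits and the cell type markers that the text turns on; *Bloc1s1*, *Top2b*, *Ncoa1* and *Crebbp* were named after their values were seen. Of the list of other pathway genes, 2 are not reported here and are in none of its counts. The gene lists and steps were chosen with earlier results of these data known. The calling script was run on simulated data with planted changes larger than the fold limit in well-expressed genes. That run checks the script and says nothing about the calls in these libraries. Scripts used Python 3.11.15, pandas 2.3.3 and numpy 2.4.6. Alternatives were other FPKM minimums, a fold of 2, TPM, scaling by the median ratio, and pseudocounts.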

Additional observations from a re-analysis of the deposited data

How the results depend on the processing

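The retinoid calls depended on the minimum and on the fold more than on the scale. With 5 FPKM required in both populations, 10 retinoid genes were higher in the GFP-high and 1 in the GFP-low population (all entries, 777 and 633). With 10 FPKM in the enriched population the counts were 12 and 2 (all entries, 820 and 707), with 1 FPKM 14 and 6 (all entries, 1540 and 1563), and with no minimum 17 and 8 (all entries, 3131 and 3248). At 2-fold they were 7 and 2 (all entries, 448 and 467). The other pathway genes, 4 and 4 as reported, had 2 calls in GFP-low cells with 5 FPKM in both populations or 10 in the enriched one, 7 with 1 FPKM, and 11 and 11 with no minimum. Adding 1 to each FPKM moved the fold of 8 of the 41 retinoid genes above 0 by over 1.5 times, *Rxrg* the called gene among them. Scaling by the median ratio of the libraries, or adding 1 or 0.1 to each FPKM, left all 12 and 4 retinoid calls in place.

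The median log2 difference over the retinoid genes was 0.28 with a pseudocount of 0.1, 0.12 on the TPM scale, 0.18 with the median ratio, 0.33 and 0.43 over genes with a mean of at least 1 and 5 FPKM, and 0.15 without the 3 genes that share 20% or more of their windows, an alternative chosen after seeing the data. Without those genes, 11 were higher in the GFP-high and 3 in the GFP-low population. No called retinoid gene could change direction under the 4 alternatives applied to folds, so that outcome is no check of the calls. Adding the same number to both values keeps their order, and both rescalings moved every ratio by less than 1.5-fold. *Rarg* and *Rdh14*, which differed by less than 1.2-fold, changed direction with the median ratio. With 1 library per population, no paired analysis was possible because no replicates exist, and leaving out a replicate could not be run. Depth limits the genes under 1 FPKM most.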
